A study of Mus musculus with 6 samples.

Results

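The genes of calcineurin signaling described here are 10 of the 27506 genes in the count table, chosen by name from a list: the calcineurin catalytic subunits Ppp3ca, Ppp3cb and Ppp3cc, the regulatory subunit Ppp3r1, the transcription factors Nfatc1, Nfatc2, Nfatc3 and Nfatc4, and the calcineurin inhibitors Rcan1 and Rcan2. They were measured by bulk RNA sequencing in molar tissue of mouse pups on the C57BL/6 background at postnatal day (P) 3.5, when root formation begins. The 3 control libraries are labelled Ror2fl/fl, a genotype in which both alleles of the Wnt5a receptor gene Ror2 carry loxP sites. The title of control library 1 carries the letters WW and those of control libraries 2 and 3 the letters OW, which the sources do not explain. Whether the controls share 1 genotype beyond that label is therefore not known. Values without control library 1 are given where its absence changed a call among the 10 genes, and for some other genes whose estimates shifted. The 3 mutant libraries came from Osr2-Cre;Ror2fl/fl mice, in which the same alleles are recombined wherever Osr2 drives Cre, that is in the dental mesenchyme and alveolar bone and not in the dental epithelium. Dental pulp was taken from the mandibular first molar, and the sources do not say whether each library came from a separate animal or from a pool, so p-values measure the spread between these libraries, which may be technical.

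Calcineurin is a phosphatase that calcium and calmodulin switch on. It consists of a catalytic subunit, which also binds calmodulin, and a regulatory subunit that binds calcium itself. Active calcineurin removes phosphates from NFAT proteins, which then enter the nucleus and switch on target genes, until kinases phosphorylate them again and they are exported. Rcan proteins bind calcineurin and inhibit it, and one transcript of Rcan1 is itself a classical NFAT target, so that its level is widely read as a sign of NFAT activity. Wnt5a acting through Ror2 and Frizzled receptors is one of the signals that can raise calcium and reach calcineurin, and the comparison asks whether the RNA of this machinery differed once Ror2 was deleted from the mesenchyme.

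Among the 10 genes 1 fell in the mutant libraries, the catalytic subunit gene Ppp3cb, from 62.7 ± 2.22 to 41.5 ± 2.38 CPM (estimated counts per 1000000 counts of the library, mean ± SD, n = 3 in each group), and none rose. For the other 9 the adjusted p was above 0.05. The estimated difference was negative for 9 of the 10 genes, with a median log2 fold change of -0.24 over the 10 against 0.01 over all 19330 genes tested. Of those 19330 genes, 20.2% were called in either direction, 9.84% lower and 10.4% higher, so that 1 of 10 is close to the background. The values of the groups did not overlap for 4 of the 10 (Ppp3cb, Ppp3r1, Nfatc2 and Nfatc3), against 44.7% of all genes tested. CPM were computed from the deposited estimated counts with TMM scaling of the libraries, log2 fold changes are mutant minus control, and a gene was called when edgeR's quasi-likelihood test gave a Benjamini-Hochberg adjusted p below 0.05 over all genes tested.

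**Figure D1:**
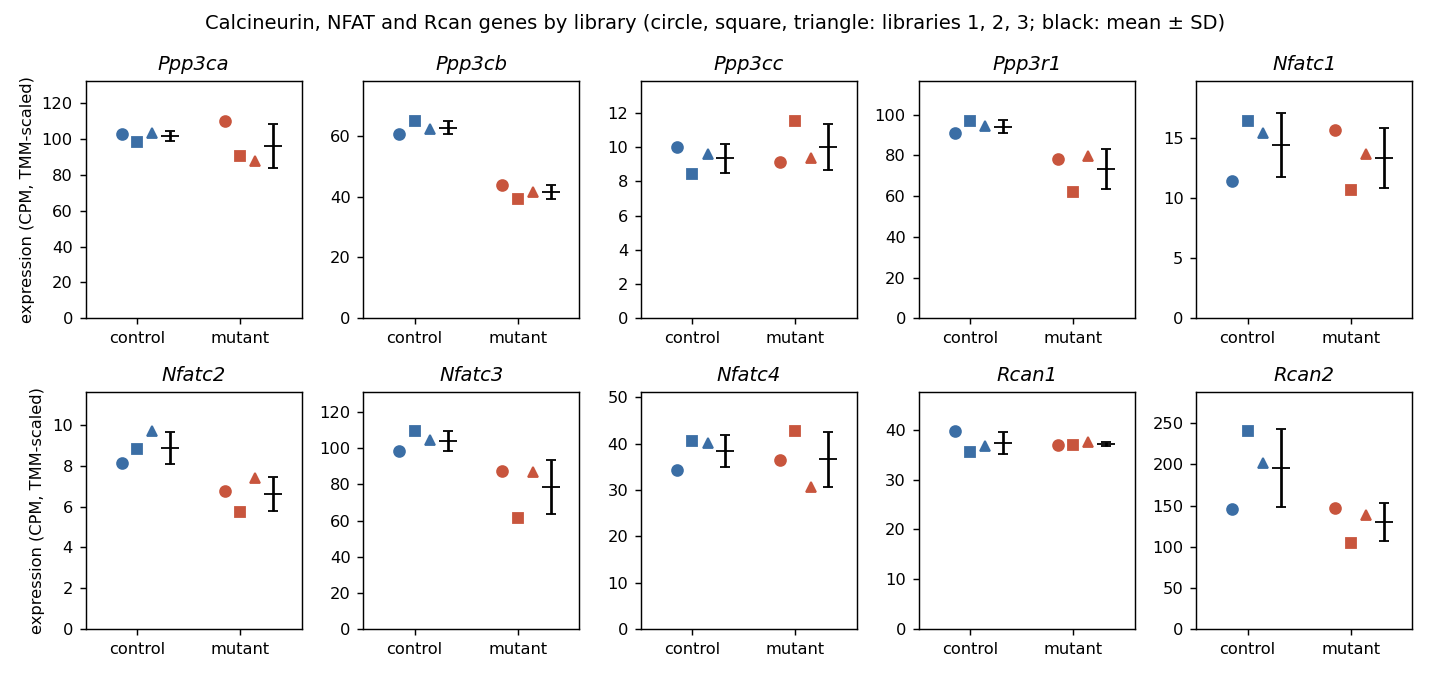
Expression of the 10 genes in CPM in each library (circles, squares and triangles are libraries 1, 2 and 3 of a group, and black marks are the mean ± SD, n = 3). The 3 mutant values of Ppp3cb, 39.2 to 44.0 CPM, lie below all control values, 60.7 to 65.1 CPM, and those of Ppp3r1, Nfatc2 and Nfatc3 also lie below their controls but with a wider spread.

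Library totals ranged from 56134770 to 62628940 estimated counts. Ror2, the deleted gene, stood at 38.2, 36.2 and 36.7 CPM in controls and at 27.9, 28.1 and 26.3 CPM in mutants (log2 fold change -0.43, SE 0.08, adjusted p = 0.0134). The RNA that remained is counted over all exons of Ror2 and over all cells of the tissue. The label gives pulp, yet the enamel gene Amelx, a marker of dental epithelium, stood at 88628 to 99214 CPM in controls and 122716 to 160441 CPM in mutants, while the summed markers of pulp mesenchyme and odontoblasts reached 9590 to 23195 and 8084 to 19007 CPM. The 6 epithelial markers together amounted to 152875 to 170339 CPM in controls and 174866 to 238672 CPM in mutants, with none of the 6 called. Of 8 skeletal muscle markers 7 fell (12.1 to 38.3 against 3.20 to 4.37 CPM summed), and 2 of 6 erythroid markers fell (784 to 1329 against 245 to 941 CPM summed). The part of these shifts in the values of the calcineurin genes was not tested. In bulk tissue, fewer cells of a type and less RNA per cell cannot be told apart.

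Per kilobase of exon, which allows levels to be set side by side between genes, the inhibitor Rcan2 and the regulatory subunit gene Ppp3r1 were the most abundant of the 10. In controls the order was Rcan2 (44.9 ± 10.8 CPM per kb, mean ± SD, n = 3), Ppp3r1 (29.1 ± 0.987), Rcan1 (12.1 ± 0.705), Ppp3ca (10.2 ± 0.269), Nfatc3 (8.88 ± 0.475), Ppp3cb (7.12 ± 0.252), Nfatc4 (6.60 ± 0.592), Ppp3cc (3.13 ± 0.279), Nfatc1 (1.93 ± 0.354) and Nfatc2 (0.840 ± 0.0748). Ppp3cb and Nfatc4 were the only neighbors in this order whose 3 control values overlapped. In the mutants the order differed at 1 place, with Nfatc4 (6.30 ± 1.03 CPM per kb) above Ppp3cb (4.71 ± 0.270), and their 3 values no longer overlapped. Rcan2 and Ppp3r1, and likewise Nfatc3 and Nfatc4, overlapped in the mutants. These lengths are unions of all annotated exons. With the longest transcript as length, Rcan1 moved from rank 3 to rank 6 in the controls, behind Ppp3ca, Nfatc3 and Ppp3cb, while Rcan2 and Ppp3r1 kept ranks 1 and 2. Ppp3cb then stayed above Nfatc4 in both groups, at 16.4 against 10.2 CPM per kb in controls and 10.8 against 9.69 in mutants. The place of Nfatc4 above Ppp3cb in the mutants thus depended on the length used.

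**Figure D2:**
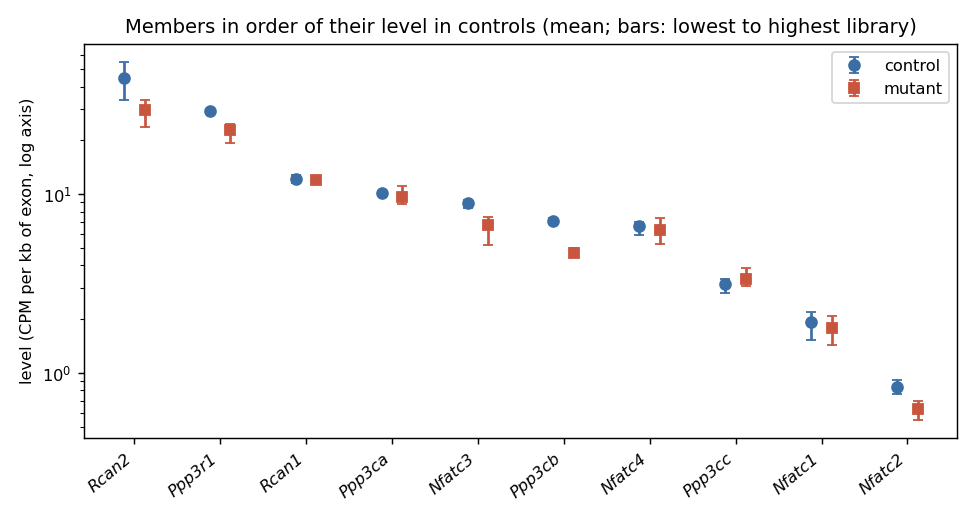
Level of each gene in CPM per kb of exon on a log axis, as the mean of 3 libraries with bars from the lowest to the highest library, for control (circles) and mutant (squares). The 10 genes run from Rcan2 at 44.9 down to Nfatc2 at 0.840 CPM per kb in controls, and Ppp3cb drops below Nfatc4 in the mutants. This change of order holds for lengths that are unions of all annotated exons and not with the longest transcript as length.

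The catalytic subunit carries the phosphatase activity, and its 3 genes behaved unequally. Ppp3cb (chr14:20499364-20546573, minus strand, mm10), which encodes the beta catalytic subunit, measured 60.7, 65.1 and 62.4 CPM in control libraries 1, 2 and 3 and 44.0, 39.2 and 41.4 CPM in mutant libraries 1, 2 and 3, from 3906, 3793 and 3854 against 2599, 2262 and 2445 estimated counts. All mutant libraries lay below all control libraries. This is a log2 fold change of -0.59 (SE 0.09, 95% interval -0.80 to -0.39, adjusted p = 0.00474), a level 33.8% lower. By p-value Ppp3cb ranked 491 among all genes tested, and it was called without each library in turn, with a log2 fold change between -0.64 and -0.54. The call was lost once the GC content of genes was taken into account (log2 fold change -0.28, adjusted p = 0.0626 in edgeR) and likewise with GC content and length together (-0.25, adjusted p = 0.0594).

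That dependence is visible across all genes. When the genes tested were split into 10 equal parts by GC content, the median log2 fold change ran from -0.34 in the part lowest in GC to 0.23 in the part highest in GC, and in the lowest part 26.0% of the genes were called lower and 3.10% higher. Ppp3cb, with 39.8% GC in its longest transcript, is in the lowest part. Ppp3r1, with 41.4% GC, is in the part next to it, where the median was -0.21. Nfatc2, Nfatc1, Rcan1 and Nfatc4, with 55.3%, 53.7%, 54.5% and 58.8% GC, are in parts whose medians were 0.20, 0.15, 0.15 and 0.23. With the offset for GC content the estimates of these 4 genes moved downward, to -0.59, -0.24, -0.15 and -0.29, and Nfatc2 was then called (adjusted p = 0.0412). Whether the GC trend arose in the libraries or in the tissue was not tested.

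**Figure D3:**
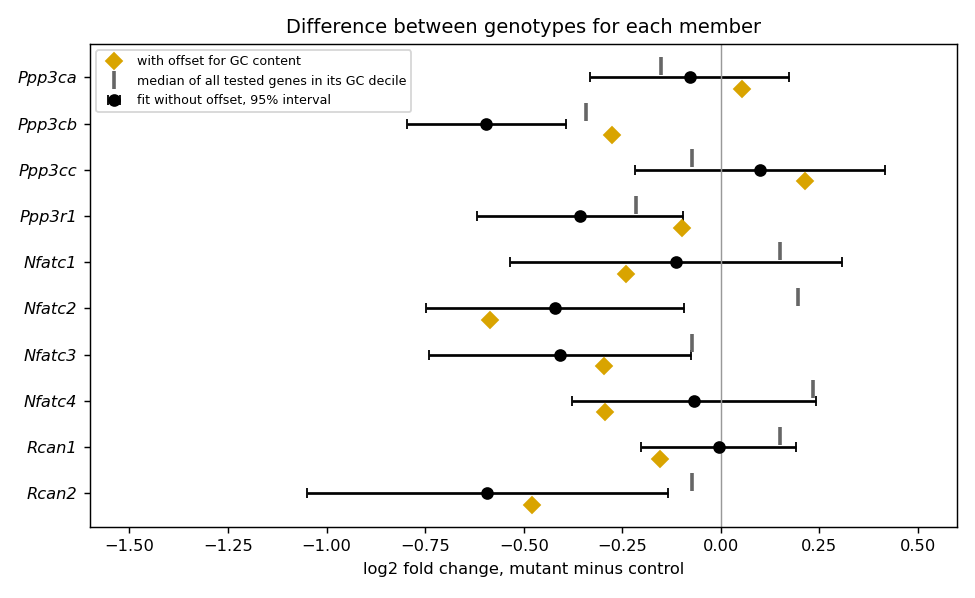
Log2 fold change of each gene (mutant minus control, 3 libraries a group) with its 95% interval, beside the estimate with an offset for GC content (diamonds) and the median of all tested genes of like GC content (gray ticks). Ppp3cb moves from -0.59 to -0.28 with the offset and Nfatc2 from -0.42 to -0.59.

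Ppp3ca (chr3:136670124-136937727, plus strand), encoding the alpha catalytic subunit, measured 103, 98.7 and 104 CPM in controls and 110, 90.8 and 88.0 CPM in mutants. Mutant library 1 was the highest of all 6 and the groups overlapped. The log2 fold change of -0.08 (95% interval -0.33 to 0.17, adjusted p = 0.626) leaves room for a difference in either direction. Ppp3cc (chr14:70217865-70289471, minus strand), the gamma subunit gene best known from testis, was lower in level, at 9.9998, 8.41 and 9.62 CPM in controls and 9.12, 11.6 and 9.35 CPM in mutants. Its groups overlapped (log2 fold change 0.10, 95% interval -0.22 to 0.42, adjusted p = 0.626), and it was the 1 gene of the 10 with an estimate above 0.

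Set against Ppp3ca in the same library, Ppp3cb stood at a ratio of 0.588, 0.659 and 0.602 (CPM to CPM) in controls and 0.398, 0.432 and 0.471 in mutants, with no overlap. By CPM per kb, Ppp3cb made up 34.8% of the 3 catalytic genes in controls and 26.6% in mutants on average, Ppp3ca 49.9% and 54.4%, and Ppp3cc 15.3% and 19.0%. These ratios and shares are descriptions and were not tested. They do not depend on the scaling of libraries, and Ppp3ca, with 45.4% GC, is in a GC part whose median was -0.15.

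**Figure D4:**
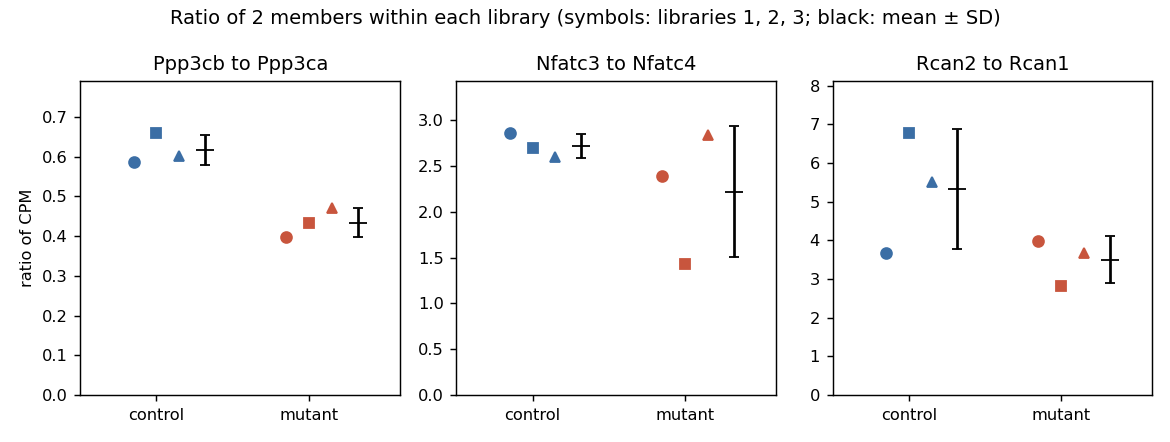
Ratio of CPM of 2 genes within each library for Ppp3cb to Ppp3ca, Nfatc3 to Nfatc4 and Rcan2 to Rcan1 (symbols are libraries 1, 2 and 3, and black marks are the mean ± SD, n = 3). The groups are separate for Ppp3cb to Ppp3ca, at 0.616 ± 0.0375 and 0.434 ± 0.0365, and overlap for the other ratios.

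By a rule of likeness, the 3 genes whose log2 CPM ran closest to that of Ppp3cb over the 6 libraries were Tmem165, Dram2 and Mosmo, among 9616 genes with a mean of at least 10 CPM. Their Euclidean distances from Ppp3cb, after each gene was centered on its own mean, were 0.06, 0.07 and 0.09 log2 units. Tmem165 measured 143, 151 and 147 CPM in controls and 106, 95.5 and 99.5 CPM in mutants.

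The regulatory subunit gene Ppp3r1 (chr11:17159263-17200375, plus strand), whose product binds calcium and holds the catalytic subunit in working order, measured 90.8, 97.1 and 94.3 CPM in controls and 78.1, 62.1 and 79.9 CPM in mutants. The groups did not overlap, and mutant library 2 was far below the other two. With a log2 fold change of -0.36 (SE 0.11, 95% interval -0.62 to -0.10) and an adjusted p of 0.0577, the gene was not called. It was called under 5 of 19 alternative settings, while without mutant library 2 the estimate was -0.24 and with the GC offset it was -0.10 (adjusted p = 0.508). Of the stretches of 75 bases in its transcripts 12.3% also occur in the overlapping gene Wdr92, and the 2 genes counted together gave -0.32 (adjusted p = 0.0686).

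The NFAT factors are the substrates through which calcineurin acts on transcription. Nfatc3 (chr8:106058840-106130537, plus strand) was the most abundant of the 4 per kb, and measured 98.3, 109 and 105 CPM in controls and 87.2, 61.2 and 87.1 CPM in mutants. Mutant library 2 stood apart from the other mutants, and the groups did not overlap. The log2 fold change was -0.41 (SE 0.14, 95% interval -0.74 to -0.08, adjusted p = 0.0773). Without mutant library 2 it was -0.25. It was also -0.25 when Nfatc3 was counted together with Esrp2, a neighbor with which it shares 1.23% of its 75-base stretches. That sum holds all reads of Esrp2 as well. Of the 19 alternatives 2 called Nfatc3 lower, DESeq2 (adjusted p = 0.0446) and limma voom (adjusted p = 0.0272).

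Nfatc2 (chr2:168476410-168601657, minus strand), best known from T cells, was the least abundant per kb. It measured 8.12, 8.83 and 9.70 CPM in controls and 6.78, 5.74 and 7.39 CPM in mutants, without overlap. The log2 fold change was -0.42 (SE 0.14, 95% interval -0.75 to -0.09, adjusted p = 0.0683). Of the 19 alternatives 5 called it, both with GC offsets among them. Nfatc2 was thus not called in the fit without offsets, whose result is used here, although its direction was negative under all 19.

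Nfatc4 and Nfatc1 gave overlapping groups. Nfatc4 (chr14:55823144-55833943, plus strand), known from heart and nervous system, measured 34.4, 40.5 and 40.1 CPM in controls and 36.4, 42.7 and 30.7 CPM in mutants, so that both the highest and the lowest of the 6 libraries were mutants (log2 fold change -0.07, 95% interval -0.38 to 0.24, adjusted p = 0.740). Nfatc1, the factor that drives osteoclast formation and heart valve development, measured 11.4, 16.5 and 15.4 CPM in controls and 15.7, 10.7 and 13.7 CPM in mutants. Its log2 fold change of -0.11 had a 95% interval from -0.53 to 0.31 (adjusted p = 0.680), and a difference within it was not detectable. Without control library 1 the estimates were -0.15 for Nfatc4 and -0.26 for Nfatc1, and neither was called. The ratio of Nfatc3 to Nfatc4 was 2.86, 2.70 and 2.61 in controls and 2.40, 1.43 and 2.84 in mutants. The low value is that of mutant library 2, which was lowest of the mutants for Nfatc3 and highest for Nfatc4.

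The Rcan genes encode the feedback inhibitors. Rcan1 has 2 starts in the RefSeq table used here, of which the downstream one gives the transcript that NFAT induces, and it is therefore shown here beside the upstream one, together with the promoter of Ppp3cb, the 1 gene called. The sequences are RefSeq windows of GRCm38.p6 from 250 bases before to 50 bases after a start, all read on the minus strand, and capitals mark GGAAA or its reverse complement TTTCC, the core letters that NFAT proteins bind.
Rcan1 upstream start (chr16:92466120-92466419): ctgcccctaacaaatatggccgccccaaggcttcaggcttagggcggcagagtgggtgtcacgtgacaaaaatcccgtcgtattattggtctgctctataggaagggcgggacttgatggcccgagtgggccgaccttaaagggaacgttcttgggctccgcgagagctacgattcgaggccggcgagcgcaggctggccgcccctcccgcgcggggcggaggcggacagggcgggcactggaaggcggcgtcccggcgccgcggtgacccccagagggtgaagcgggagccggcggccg
Rcan1 downstream start (chr16:92400029-92400328): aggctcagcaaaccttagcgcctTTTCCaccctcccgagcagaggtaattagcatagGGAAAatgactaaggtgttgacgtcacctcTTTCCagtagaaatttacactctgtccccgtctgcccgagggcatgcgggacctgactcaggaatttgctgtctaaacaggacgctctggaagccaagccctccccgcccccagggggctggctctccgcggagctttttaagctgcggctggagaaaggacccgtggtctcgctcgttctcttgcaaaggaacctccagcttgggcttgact
Ppp3cb (chr14:20546524-20546823): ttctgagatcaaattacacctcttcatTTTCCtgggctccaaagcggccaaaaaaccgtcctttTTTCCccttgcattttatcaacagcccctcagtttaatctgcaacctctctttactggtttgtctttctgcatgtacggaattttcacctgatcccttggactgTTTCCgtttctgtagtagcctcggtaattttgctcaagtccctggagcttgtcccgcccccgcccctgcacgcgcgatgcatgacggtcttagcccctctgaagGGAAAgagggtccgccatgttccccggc
The upstream Rcan1 window holds 0 such matches and the downstream window, 66091 bases away, holds 3, a number reached by 9.42% of the 32851 windows of the RefSeq table. The Ppp3cb window holds 4, a number reached by 2.65%. The search covered both strands, and 61.3% of all windows hold at least 1 match, so a match is a description of letters and not a binding site. Any window of Nfatc1 is not reported here. Of the other genes 7 have windows in the table, 12 windows in all, and 6 of these 7 have a match in at least 1 window. Nfatc2 has 3 and 1, Nfatc4 has 3, Rcan2 has 2, 0 and 0, and Nfatc3 has 1 and 0, while the window of Ppp3r1 has 0.

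Rcan1 (chr16:92391953-92470867, minus strand) measured 39.7, 35.5 and 36.7 CPM in controls and 36.9, 36.9 and 37.6 CPM in mutants. The mutant libraries all lay within the range of the controls. The log2 fold change was -0.01 (SE 0.09, 95% interval -0.20 to 0.19, adjusted p = 0.967), an interval among the narrowest of the 10, and the sign of the estimate turned in 6 of 19 alternatives. The counts add all transcripts of the gene, so the NFAT-induced transcript could not be told apart from the other, and a change in it alone may be hidden in the sum.

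Rcan2 (chr17:43801351-44039516, plus strand) spread far more. It measured 146, 240 and 202 CPM in controls and 147, 104 and 139 CPM in mutants. Control library 1 fell within the mutant range, and the other 2 controls lay above all mutants. The log2 fold change of -0.59 had the same size as that of Ppp3cb but a wider error (SE 0.20, 95% interval -1.05 to -0.13, adjusted p = 0.0676). Without control library 1 it was -0.77 and was called (adjusted p = 0.0364 in edgeR). In all, 5 of 19 alternatives called Rcan2 lower, also DESeq2, edgeR's likelihood ratio test, limma voom and library size alone. The ratio of Rcan2 to Rcan1 was 3.68, 6.77 and 5.50 in controls and 3.99, 2.83 and 3.68 in mutants, again with overlap. Of the 10 markers of pulp mesenchyme and odontoblasts 4 had their libraries in the same order as Rcan2 within both groups (Col1a2, Dspp, Lhx8 and Msx2), and the other 6, Dmp1 among them, did not. The 2 most abundant, named after their values were seen, are given here. Col1a2, a chain of type I collagen, measured 5611, 13854 and 10596 CPM in controls and 11338, 4422 and 6583 CPM in mutants, and the odontoblast gene Dspp measured 2909, 7979 and 5218 against 6396, 2515 and 4151 CPM. Their part in the Rcan2 values was not tested.

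The same libraries recurred at the ends of the ranges. Control library 1 was the lowest control for 7 of the 10 genes and control library 2 the highest for 6, while mutant library 2 was the lowest mutant for 6. The exceptions in the control group were Ppp3ca, Ppp3cc and Rcan1, for which control library 2 was the lowest. The 10 genes summed came to 603 to 720 CPM in controls and 465 to 572 CPM in mutants, without overlap, a sum to which Rcan2 contributed most.

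The wider pathway was described with 6 lists of 96 genes, of which 84 could be tested. Of the 84, 2 were called higher and 12 lower, with a median log2 fold change of -0.14 against 0.01 over all genes tested, and 33 had groups that did not overlap. These are shares of 2.38%, 14.3% and 39.3%, against 10.4%, 9.84% and 44.7% of all genes tested. The number of lower calls varied with the libraries used. It was 2 without control library 2 and 2 without control library 3 (the nuclear transport genes Xpo1 and Cse1l in both), 6 without mutant library 1 and 12 without control library 1, while the lower calls over all genes went from 1903 to 432, 414, 1129 and 1389 in these fits. The lists include no gene of the 10, but they include Ror2, the deleted gene, which is 1 of the 12 lower calls.

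**Figure D5:**
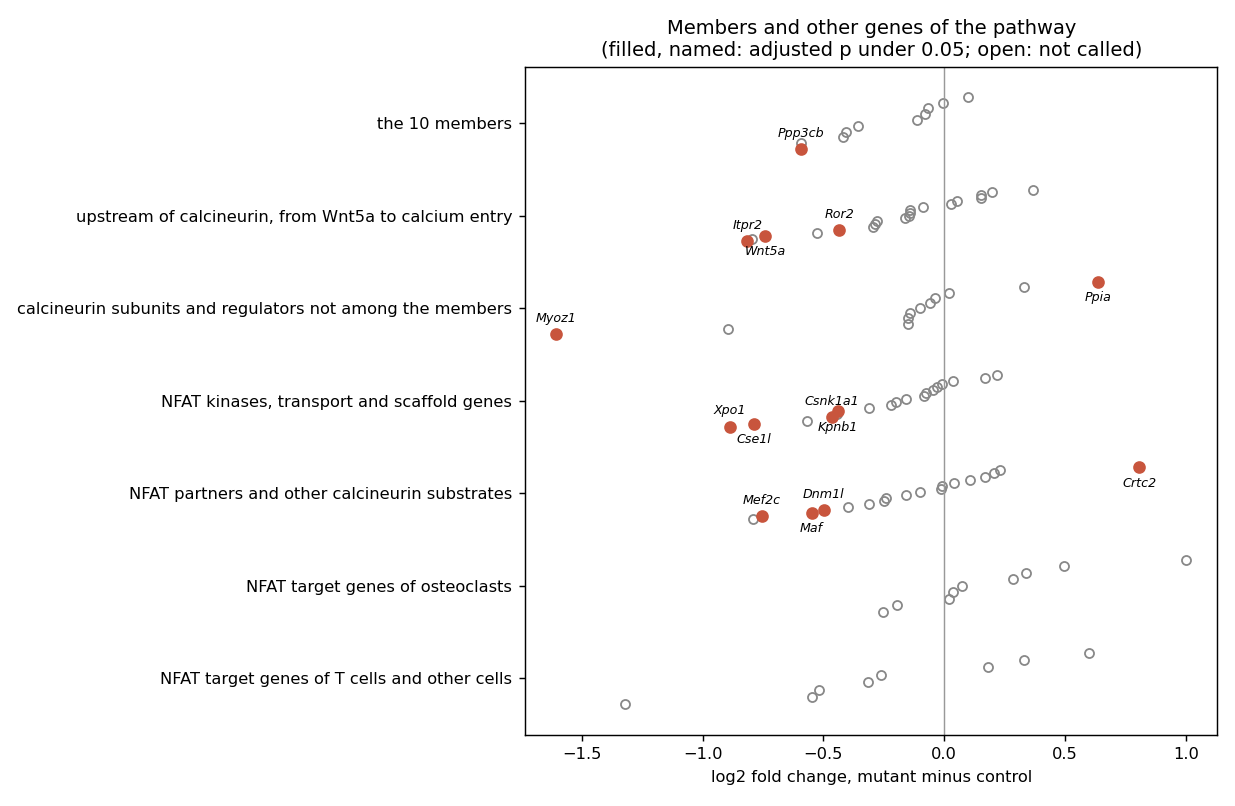
Log2 fold change (mutant minus control) of the 10 genes and of 83 of the 84 tested genes in 6 pathway lists, filled and named where the adjusted p was below 0.05 and open where it was not. The lower calls fall in the lists upstream of and around calcineurin and NFAT, and neither list of NFAT target genes holds a call in this fit. The target lists are small, with 9 and 8 tested genes, some of them at low levels, and 9.84% of all genes tested were called lower. A difference between the lists was not tested.

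Upstream of calcineurin, 3 of 19 tested genes fell, the deleted gene Ror2 among them, and none rose. Of all genes tested 9.84% were called lower and 10.4% higher, a background that also holds for the counts of the lists below. Wnt5a, the ligand of Ror2, went from 217 ± 36.2 to 130 ± 15.9 CPM (log2 fold change -0.74, adjusted p = 0.0160), Itpr2, a channel that releases calcium from the endoplasmic reticulum, from 16.1 ± 2.73 to 9.17 ± 1.09 CPM (-0.82, adjusted p = 0.0128), and the other was Ror2 itself. These 3 calls were each lost without control library 2 or control library 3, with adjusted p between 0.0593 and 0.0763 in edgeR. Without control library 1 all 3 were called, Wnt5a at -0.88, Itpr2 at -0.94 and Ror2 at -0.42. With offsets for GC content and length they were called at -0.48 for Wnt5a, -0.52 for Itpr2 and -0.62 for Ror2.

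Of 12 tested subunits and regulators of calcineurin outside the 10, 2 fell and 1 rose. Calm2 and Calm3, which encode calmodulin, the activator of calcineurin, stood at -0.04 and -0.15 and were not called. Under 2 of 19 alternatives Calm3 was called lower, and its lowest estimate among the 19 was -0.42. Myoz1, a muscle protein of the sarcomere that binds calcineurin, fell from 0.489 to 0.159 CPM (log2 fold change -1.61, adjusted p = 0.0192), alongside the muscle markers given above, a call lost without any 1 of the control libraries or without mutant library 1. Ppia, the cyclophilin through which cyclosporin blocks calcineurin, rose from 162 ± 3.85 to 252 ± 6.78 CPM (0.64, adjusted p = 0.00485). Ppia shares stretches with many pseudogenes, and also with the coding gene Gclm and the transcript Gm17494. Counted together with all of these it stood at 0.22 (adjusted p = 0.164 in edgeR). That sum also holds the reads of the partners themselves, so the change of Ppia alone is uncertain. A further 7 tested genes were not called: Cabin1, an inhibitor, at 0.33 (adjusted p = 0.0870), the anchoring proteins Akap5 at -0.90 and Akap1 at -0.06, the inhibitor Rcan3 at -0.10, the homologs of the regulatory subunit Chp1 at -0.15 and Chp2 at -0.14, and the FK506-binding protein Fkbp1a at 0.02. Ppp3r2, the regulatory subunit of testis, and Myoz2 were too low to be tested.

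The next list holds genes that phosphorylate NFAT or carry it across the nuclear envelope. Of its 18 kinases, transport factors and scaffold genes 4 fell and none rose. Xpo1, the exportin that carries phosphorylated NFAT out of the nucleus, measured 82.8, 98.4 and 97.5 CPM in controls and 44.1, 44.9 and 61.8 CPM in mutants. It fell by 0.89 on the log2 scale (SE 0.15, adjusted p = 0.00777) and was called under all 19 alternatives, with an estimate of -0.59 with the GC offset and -0.46 with offsets for GC content and length. Cse1l, which recycles importin alpha, fell by 0.79 (adjusted p = 0.00973) and was likewise called under all 19, at -0.54 and -0.52 with these offsets. Csnk1a1, a casein kinase that phosphorylates NFAT, fell by 0.46 (adjusted p = 0.0364), a call lost under 8 of 19. The other called gene, Kpnb1 (importin beta), stood outside the rule for naming and is given after its values were seen, at -0.44 (adjusted p = 0.0472). Its call was lost without control library 2, control library 3 or mutant library 1.

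Among 18 tested partners of NFAT and other calcineurin substrates 3 fell and 1 rose. Dnm1l, a mitochondrial fission protein that calcineurin dephosphorylates, fell by 0.50 (adjusted p = 0.00979), Maf, a partner of NFAT on cytokine genes, fell by 0.55 (adjusted p = 0.0281), and Mef2c, given after its values were seen, fell by 0.75 (adjusted p = 0.0305). Crtc2, a coactivator that calcineurin releases to the nucleus, rose by 0.81 (adjusted p = 0.0102), a call lost without control library 2 (adjusted p = 0.0548). The Dnm1l call was lost with the GC offset (-0.22, adjusted p = 0.0921), and Maf stood at -0.35 and was called with offsets for GC content and length. Without control library 2 or control library 3 the calls of Dnm1l, Maf and Mef2c were lost. For Dnm1l and Maf the adjusted p was then between 0.0642 and 0.118 in edgeR. The calls of Maf (adjusted p = 0.0618 in edgeR) and Mef2c were also lost without mutant library 1. Nfat5, the NFAT family member that calcineurin does not regulate, measured 164 ± 15.7 and 138 ± 27.1 CPM and was not called (log2 fold change -0.25, 95% interval -0.60 to 0.10, adjusted p = 0.263). Its estimate was -0.15 without mutant library 1, -0.42 and called without mutant library 3 (adjusted p = 0.0458 in edgeR), -0.03 with the GC offset and 0.31 with offsets for GC content and length.

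Neither list of NFAT target genes contained a call in the fit used here, although 3 of the target genes named below were called under other settings. The target genes not named were not examined gene by gene under those settings. Of 9 tested osteoclast targets the smallest p-values were those of the chloride transporter gene Clcn7 (log2 fold change 0.34, adjusted p = 0.0801), the receptor gene Oscar (1.001, adjusted p = 0.0838) and the integrin gene Itgb3 (-0.25, adjusted p = 0.359), and Oscar was low at 0.189 and 0.381 CPM. Clcn7 was called higher without mutant library 3 (adjusted p = 0.0464 in edgeR) and Oscar with limma voom (adjusted p = 0.0273). Markers of macrophages and osteoclasts summed to 113 to 131 CPM in controls and 89.5 to 133 CPM in mutants, with 1 of 7 lower. Of 15 targets known from T cells and other cells 8 could be tested, led by Ptgs2 (log2 fold change -1.32, adjusted p = 0.0604), the tissue factor gene F3 (-0.52, adjusted p = 0.0959) and Egr2 (0.60, adjusted p = 0.170). Ptgs2, at 0.758 and 0.301 CPM, was called lower under 4 of 18 alternatives, namely DESeq2, edgeR's likelihood ratio test, limma voom and the fit without control library 1 (adjusted p 0.0235 to 0.0433). The cytokine genes Il2, Ifng, Tnf and Il6 were too low to be tested or not listed. T cell markers summed to 3.37 to 3.84 CPM in controls and 5.05 to 5.65 CPM in mutants, with 2 of 5 tested markers higher and Cd8a not listed, and their part in these values was not tested.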

How the data were processed

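RNA of molar pulp at P3.5 was sequenced in 3 control and 3 mutant libraries, grouped by the genotype in the labels. The authors deposited estimated counts per gene (47.8% of values whole) and a table of normalized signal, in which each count plus 1 is multiplied by 1 factor per library. Single-end reads of 75 cycles were aligned to mm10. The methods name TopHat 2 and the submitters' processing notes name STAR 2.6.1d and Partek. The counting program, its annotation, its handling of shared reads and its use of strand are not given in the sources used here, so genes that overlap cannot be told apart. The table holds 6 columns of other samples, which were not used.

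Estimated counts were rounded to whole numbers, filtered with filterByExpr, scaled with TMM and tested with edgeR 4.0.16 (quasi-likelihood, R 4.3.3), with p-values adjusted by the Benjamini-Hochberg method over all 19330 genes tested. No pair of libraries of a group was a copy. Coordinates and exon lengths are those of GENCODE M21, which held 27499 of the 27506 genes. Alternatives used DESeq2 1.42.0, limma 3.58.1, other scalings and filters, offsets for GC content and length, sums over genes sharing sequence, and each library left out. The scripts were tested on simulated data. With 3 libraries a group an exact permutation test cannot go below p = 0.1, and none was used. The 10 genes and the pathway and marker lists were chosen with earlier results of these data known. Named besides the 10 are the 3 genes with the smallest p of each pathway list, Wnt5a, Ror2, Nfat5, the tested calcineurin genes and the 3 genes closest to Ppp3cb, except that 1 pathway gene is not reported here by name. Marker lists not described above gave, of the tested genes, 1 of 10 higher for pulp mesenchyme and odontoblasts, 1 of 7 higher for endothelium, 0 of 6 called for smooth muscle, 1 of 6 higher for neurons, and 2 higher and 1 lower of 7 for Schwann cells.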

Additional observations from a re-analysis of the deposited data

How the results depend on the processing

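Ppp3cb was called lower under 17 of 19 alternatives, the exceptions being the GC offsets (-0.28 and -0.25). The number of the 10 genes called lower was 1 as reported and 5 with DESeq2, 5 with limma voom, 3 with edgeR's likelihood ratio test, 3 with library size alone and 1 to 3 with a library left out, and none was called higher under any setting. The pathway counts of 12 lower and 2 higher became 19 and 6 with limma voom, 1 higher with genes sharing sequence summed, and 2 to 15 lower and 1 to 5 higher with a library left out. The sample index in the labels was also tried as a replicate block. Deviations of libraries with the same index correlated at -0.10, -0.08 and -0.00, so the index was not taken to pair the libraries. The block gave 6 pathway genes lower, the same 1 member (Ppp3cb, -0.60, adjusted p = 0.0296), and 1012 genes higher and 1001 lower overall against 2003 and 1903. The block ended the calls of Myoz1, Csnk1a1, Maf and Ror2 (adjusted p 0.0582 to 0.0789 in edgeR). Kpnb1 and Mef2c were not among its 6 lower pathway genes either. Over all genes, limma voom called 3167 higher and 3174 lower, library size alone 1644 and 2070, and the fits with a library left out 458 to 2520 higher and 414 to 2481 lower, the fewest without control library 3. Signs turned for Rcan1 (0.022 with limma voom, 0.014 with the CPM filter, 0.014 with both pseudocounts, -0.049 to 0.032 with a library left out), for Ppp3cc (-0.0079 to 0.16), Nfatc1 (-0.26 to 0.035) and Nfatc4 (-0.18 to 0.039) with a library left out, and for Ppp3ca with the GC offset (0.054) and with GC and length (0.12). Outside the 10, they turned for Calm2 (0.18 with the GC offset, 0.060 with GC and length, -0.13 to 0.045 with a library left out), Fkbp1a (-0.13, -0.20, and -0.0092 to 0.086), Rcan3 (-0.25 to 0.064) and Chp2 (-0.44 to 0.14) with a library left out, and Nfat5 (0.31 with GC and length). None of these values was called, and the cause was not tested. Depth limits genes below 1 CPM, such as Myoz1 and Oscar, whose estimates have SEs of 0.35 and 0.37.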
